A study of Mus musculus with 25 samples.

Results

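Thalamus marker genes, a set of 10 genes enriched in thalamic neurons, were followed through hypothalamus RNA from mice that differed in the diet of their mother. The genes were chosen by symbol (Prkcd, Tcf7l2, Lef1, Slc17a6, Gbx2, Rora, Ntng1, Synpo2, Plekhg1 and Zic4), with earlier results of these data known. All 10 were found among the 24421 genes of the deposited tables. Because of that choice, shares of members set beside shares of all genes are descriptions and not tests. The 25 samples were hypothalami of 3-month-old C57BL/6J mice labelled WT, in 8 groups. Group names give the maternal diet first and the offspring's own diet second, where HCD is a hypercaloric, high-sucrose chow with 52% fat and RD is regular chow. Dams ate their diet for 1 month before mating and on through pregnancy and lactation. The HCD-weaned offspring were HCD-HCD Male, HCD-HCD Female, RD-HCD Male and RD-HCD Female, with 3 samples each. The RD-weaned offspring were HCD-RD Male, HCD-RD Female and RD-RD Female, with 3 samples each, and RD-RD Male, with 4. Nothing in the labels ties the samples to litters, and p-values therefore measure only the spread between these samples.

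The thalamus is the relay between the sense organs, the cerebellum and the cortex, and it lies directly above the hypothalamus. Its relay neurons are glutamatergic and load their vesicles through the transporter encoded by Slc17a6. Their identity is set up during development by transcription factors that include Gbx2, Tcf7l2 and Lef1, the latter pair being DNA-binding partners of beta-catenin in the Wnt pathway. Prkcd, a protein kinase C, is widely used as a stain for relay nuclei in the adult rodent. Several of these genes are not exclusive to thalamus: Slc17a6 is also the vesicular transporter of most glutamatergic hypothalamic neurons, and Rora, Lef1 and Zic4 are used by other brain regions.

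The question in each of the 4 comparisons was whether maternal HCD changed expression in offspring of one sex on one diet. Each comparison is a table of the authors' own fold changes, standard errors and p-values, and no value of a single library could be used here. A positive log2 fold change was taken to mean a higher level where the dam ate HCD. The labels give that reading for the HCD-weaned offspring, where the RD-dam groups are called control. In the tables of RD-weaned offspring the reading rests on the order in which the groups are named, which is the same in the tables of both sexes, and an error there would turn every sign of a table together. Called means an adjusted p under 0.05 over all genes tested.

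The deposited means held both sexes as labelled, with Xist at a mean normalized count of 3893 and 5611 in the authors' deposited tables of females and at 3.33 and 0.447 in those of males. All of 18 genes of hypothalamic neurons had means above 0, which is too low a bar to test the tissue label. Between 6 and 10 of the 18 had a mean normalized count under 10 in each of the authors' deposited tables, and Pmch, the precursor of melanin-concentrating hormone, was the most abundant, at 1793 to 7048. Oxt, the oxytocin precursor, averaged 13.9 in the authors' deposited table of RD-weaned males and 453 to 1199 in the other tables. The 10 thalamus genes all had means above 100. As a share of the means summed over all genes, the 10 together came to 0.0797% (HCD-weaned males), 0.0834% (HCD-weaned females), 0.107% (RD-weaned males) and 0.0608% (RD-weaned females) in the authors' deposited tables. In the same order, the 18 hypothalamic genes came to 0.0253%, 0.0276%, 0.0165% and 0.0486% in the authors' deposited tables. For 8 striatal genes the shares were 0.102%, 0.169%, 0.111% and 0.192%. For 10 genes of cortex and hippocampus they were 0.0632%, 0.0447%, 0.0572% and 0.0769%, also from the authors' deposited tables. Prkcd and Slc17a6 made up much of the thalamus sum, whereas Gbx2, Zic4 and Lef1 lay below the median level of tested genes in every table. In RD-weaned males the thalamus sum was at its highest share and the hypothalamic sum at its lowest.

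Prkcd was the most abundant member per length in every table. Its mean normalized count was 6312 and 6087 in HCD-weaned males and females, and 5319 and 4530 in RD-weaned males and females, in the authors' deposited tables, higher than at least 93.3% of tested genes. Per kilobase of the longest annotated transcript, the median over the authors' deposited tables was 2000.3 for Prkcd, 872 for Slc17a6, 526 for Tcf7l2 and 294 for Ntng1. These 4 genes kept that order in every table. Rora followed at 193 per kilobase, Plekhg1 at 176, Lef1 at 109, Gbx2 at 106, Zic4 at 65.1 and Synpo2 at 46.7, from the authors' deposited tables. Rora and Plekhg1, Lef1 and Gbx2, and Zic4 and Synpo2 exchanged places in at least 1 table, and no spread over libraries was at hand to separate neighbours. The tables were normalized separately, and their summed means ran from 1.54e+07 in RD-weaned males to 2.70e+07 in HCD-weaned males. Part of any contrast between the mean counts given above can therefore be scale. Ratios between tables are taken only on shares of each table. As such a share, Synpo2 varied the most, from its lowest in RD-weaned females to its highest in RD-weaned males of the authors' deposited tables, a ratio of 3.08, against ratios of 1.53 to 1.99 for the other 9 members.

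**Figure D1:**
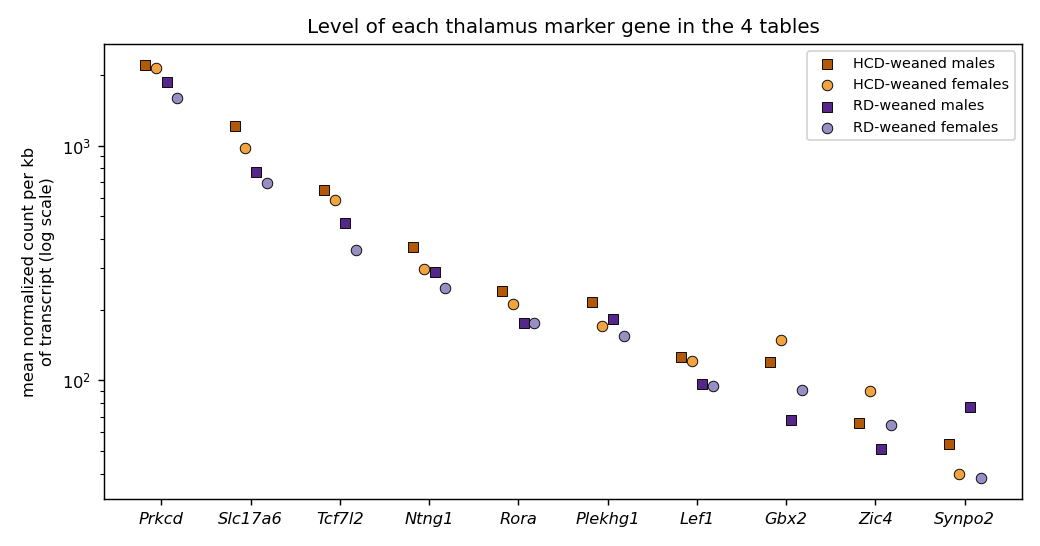
Mean normalized count per kilobase of the longest annotated transcript (log axis) for each thalamus marker gene, 1 point for each of the 4 deposited tables, where each mean is taken over the libraries of both maternal diets. Prkcd is highest in all 4 tables, Slc17a6, Tcf7l2 and Ntng1 follow in that order, and Synpo2 has the lowest median, 46.7.

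In RD-weaned females, all 10 thalamus markers had a fold change below 0, so lower in offspring of HCD dams, and Zic4 and Gbx2 fell past the threshold. These are 2 of 9 members tested, where 0.346% of 15028 tested genes were called. The median log2 fold change of the 10 members was -0.53, against 0.01 over all tested genes, and 49.1% of tested genes had a negative value, both computed from the authors' deposited table. At an unadjusted p under 0.05 the count was 5 of 9, against 6.16% of all tested genes. The members were chosen with earlier results known and were measured in the same libraries, so these counts only describe them. In bulk tissue, fewer cells of a type in the sample, for any reason, and less RNA per cell cannot be told apart. Lists of neighbouring regions also lay away from 0 here, with medians of -0.60 for habenula and 0.94 for cortex and hippocampus. How much of each region the samples held was not tested.

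Zic4, a zinc finger transcription factor (chr9:91362413-91389348, plus strand, GRCm38), had the largest fold change among members in RD-weaned females. Its log2 fold change was -1.30 (standard error 0.29) with p = 5.42e-06 and adjusted p = 0.00626, per the authors' deposited table. On a linear scale the deposited value gives a 2.47-fold difference, with HCD-dam offspring at 40.5% of RD-dam offspring, or 2.47-fold higher if the sign of the table is turned, per the authors' deposited table. The deposited fold changes look shrunken, so linear values here and below can differ from the ratio of RNA between groups. Gbx2, the homeodomain factor that marks developing thalamus (chr1:89927956-89931179, minus strand), fell by 1.11 on the log2 scale (standard error 0.29, adjusted p = 0.0474), per the authors' deposited table, to 46.2%, or was 2.16-fold higher if the sign is turned. Zic4 ranked 11 and Gbx2 ranked 32 of 15028 genes from the lowest Wald statistic, the ratio of a fold change to its standard error. Both are among the less abundant members, with means of 251 and 195 in the authors' deposited table of RD-weaned females. The call of Gbx2 depends on which genes share the adjustment: over every gene with a p-value and no filter on low counts its adjusted p was 0.0585, from p-values of the authors' deposited table.

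The upstream sequences of the called pair and of Prkcd, which had the largest fold change of any member, are shown. The reason is that both called genes encode transcription factors and that Tcf7l2 and Lef1 bind a short known motif. Windows are the 250 bases upstream of RefSeq gene starts on GRCm38.p6, printed 5′ to 3′ on the strand of the gene, in lower case, with TCF/LEF matches (CTTTGA or its reverse complement TCAAAG) in capitals. The Gbx2 window is chr1:89931177-89931426 on the minus strand, the Zic4 window chr9:91368722-91368971 on the plus strand, and the Prkcd window shown, the one of its 2 that holds a match, chr14:30626209-30626458 on the minus strand. The Zic4 window lies inside the gene span given above (chr9:91362413-91389348), so it is upstream of a RefSeq start but not of the start of that span.
Gbx2: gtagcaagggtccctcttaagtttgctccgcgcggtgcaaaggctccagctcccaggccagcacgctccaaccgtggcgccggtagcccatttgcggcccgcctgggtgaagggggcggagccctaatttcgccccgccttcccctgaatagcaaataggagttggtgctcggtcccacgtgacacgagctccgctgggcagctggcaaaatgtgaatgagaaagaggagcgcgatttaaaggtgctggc
Zic4: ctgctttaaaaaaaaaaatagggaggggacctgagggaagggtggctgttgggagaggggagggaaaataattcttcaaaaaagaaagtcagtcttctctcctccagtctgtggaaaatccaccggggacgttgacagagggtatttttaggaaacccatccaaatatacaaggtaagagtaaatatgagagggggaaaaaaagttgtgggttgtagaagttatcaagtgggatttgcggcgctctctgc
Prkcd: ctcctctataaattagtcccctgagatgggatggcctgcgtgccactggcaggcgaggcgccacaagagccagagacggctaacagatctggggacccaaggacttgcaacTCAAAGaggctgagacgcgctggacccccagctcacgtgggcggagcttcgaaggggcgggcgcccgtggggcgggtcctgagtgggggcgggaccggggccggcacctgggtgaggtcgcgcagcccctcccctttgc

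All 10 members matched the RefSeq table, with 16 windows. The TCF/LEF letters were in 2 of the 16, 1 of Prkcd and 1 of Lef1, and in 13.8% of all 32851 windows of that length. A ROR half-site, the letters AGGTCA that the Rora protein is known to bind, was in 0 of the 16 windows and in 14.0% of all. A homeodomain core, TAATTA, was in 2 of the 16, those of Slc17a6 and Synpo2, and in 4.84% of all. Both strands were searched, and TCF/LEF and ROR letters can overlap at their ends. The Gbx2 window is 61.6% G and C, that of Zic4 44.4% and the Prkcd window shown 67.6%, with a median of 52.4% over all windows. The other Prkcd window (chr14:30610311-30610560, minus strand) is 50.8% G and C and holds none of the 3 motifs. A match is a description of these letters and nothing is drawn from its absence.

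**Figure D2:**
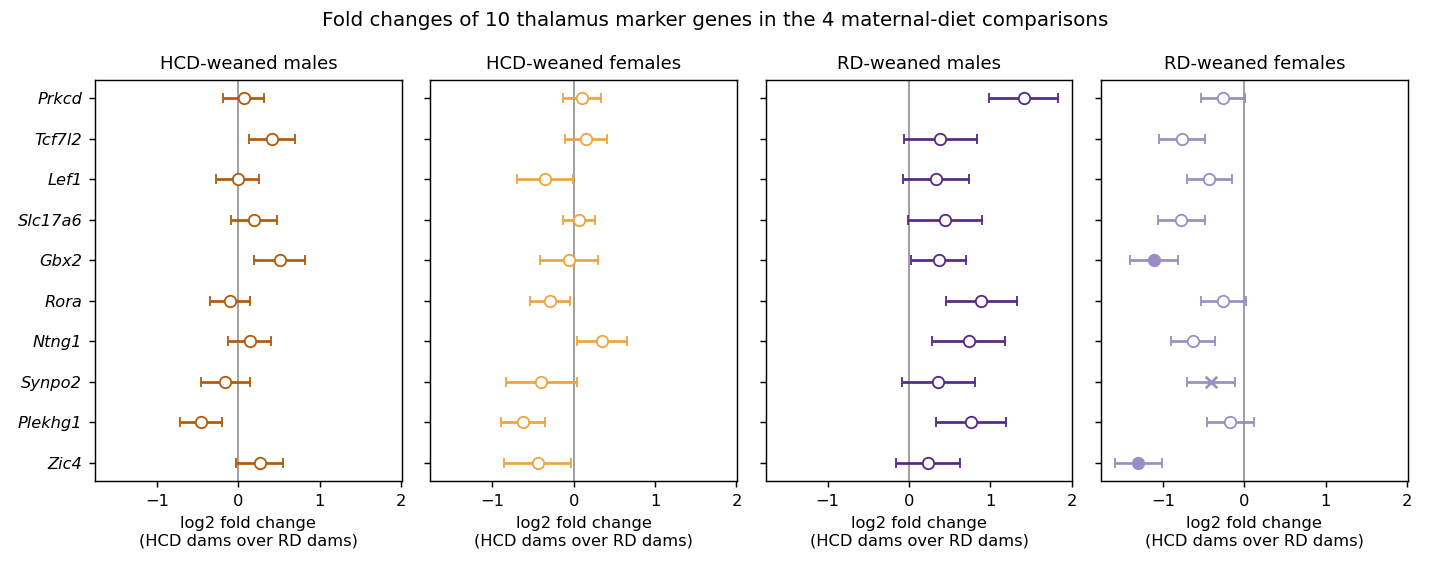
Log2 fold change (HCD dams over RD dams, with bars of 1 deposited standard error) of each thalamus marker gene, 1 panel for each comparison; filled points have an adjusted p under 0.05, open points do not, and a cross marks a gene with no p-value. In RD-weaned females all 10 points lie below 0 and only Gbx2 and Zic4 are filled, and in RD-weaned males all 10 lie above 0 and none is filled.

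Of the other members in RD-weaned females, Tcf7l2 (chr19:55741820-55933654, plus strand), the Wnt effector kept on in adult thalamus, had a log2 fold change of -0.77 (standard error 0.29, adjusted p = 0.395), per the authors' deposited table. Slc17a6 (chr7:51622006-51671119, plus strand) had -0.78 (standard error 0.29, adjusted p = 0.403), per the authors' deposited table. Ntng1 (chr3:109780040-110144011, minus strand), which encodes a membrane-anchored axon guidance protein of thalamic axons, had -0.63 (standard error 0.27, adjusted p = 0.621), per the authors' deposited table. These 3 had unadjusted p-values under 0.05 and did not pass the adjusted threshold. Lef1 (chr3:131110471-131224356, plus strand) was at -0.43 (standard error 0.28, adjusted p = 0.986), per the authors' deposited table. Synpo2 (chr3:123076519-123236149, minus strand), an actin-binding protein, was at -0.41 (standard error 0.29) and is among 342 genes of the authors' deposited table with no p-value despite the status OK. The smallest values were those of Prkcd (chr14:30595354-30626210, minus strand), at -0.26 (standard error 0.27), Rora (chr9:68653786-69388246, plus strand), at -0.26 (standard error 0.28), and Plekhg1 (chr10:3740364-3967303, plus strand), at -0.17 (standard error 0.29), in the authors' deposited table. The most abundant marker, Prkcd, thus had one of the values closest to 0, with a 95% interval of -0.78 to 0.26 computed from the authors' deposited table.

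In RD-weaned males, all 10 members had a fold change above 0 and none passed the adjusted threshold of the authors' DESeq Wald test, where 0.0851% of 12920 tested genes were called. At an unadjusted p under 0.05 the count was 2 of 10, Prkcd and Rora, against 4.3% of tested genes. The median log2 fold change of the members was 0.41, against 4.8e-05 over all tested genes, with 50.0% of tested genes positive, computed from the authors' deposited table. The library files of this comparison have 6 columns where 7 samples are labelled, so 1 labelled sample may not be in its values. Standard errors were wider here: their median over members was 0.43, against 0.27 to 0.29 in the other comparisons of the authors' deposited tables. In RD-weaned males 1554 genes had no p-value despite the status OK, against 342 in RD-weaned females and 0 in HCD-weaned males and females. All 10 members had a p-value in RD-weaned males.

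Prkcd had a log2 fold change of 1.41 (standard error 0.43) in RD-weaned males, with p = 0.000914 and adjusted p = 0.223, per the authors' deposited table. That is a 2.66-fold difference, higher in offspring of HCD dams, or lower if the sign of the table is turned. As deposited, its Wald statistic was above that of 99.8% of tested genes in the authors' deposited table. Its call depends on the scale of the statistic, because the Wald statistics of this table spread less than a standard normal (robust SD 0.847): divided by that spread, Prkcd had an adjusted p = 0.0224, from the authors' deposited table. On that scale 0.573% of 12920 tested genes were called, against 0.0851% as deposited. Rora, a nuclear receptor, had a log2 fold change of 0.89 (standard error 0.43, adjusted p = 1.00), per the authors' deposited table. Plekhg1 was at 0.77 (standard error 0.43) and Ntng1 at 0.73 (standard error 0.45), each with adjusted p = 1.00, in the authors' deposited table. Prkcd, Rora and Plekhg1, the 3 highest members in males, were the 3 closest to 0 in females. The remaining 6 lay between 0.23 and 0.44 in the authors' deposited table: Slc17a6 at 0.44, Tcf7l2 at 0.39, Gbx2 at 0.36, Synpo2 at 0.36, Lef1 at 0.33 and Zic4 at 0.23. Gbx2 and Zic4, the called pair in females, had 95% intervals of -0.30 to 1.03 and -0.54 to 1.01 in males, computed from the authors' deposited table.

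**Figure D3:**
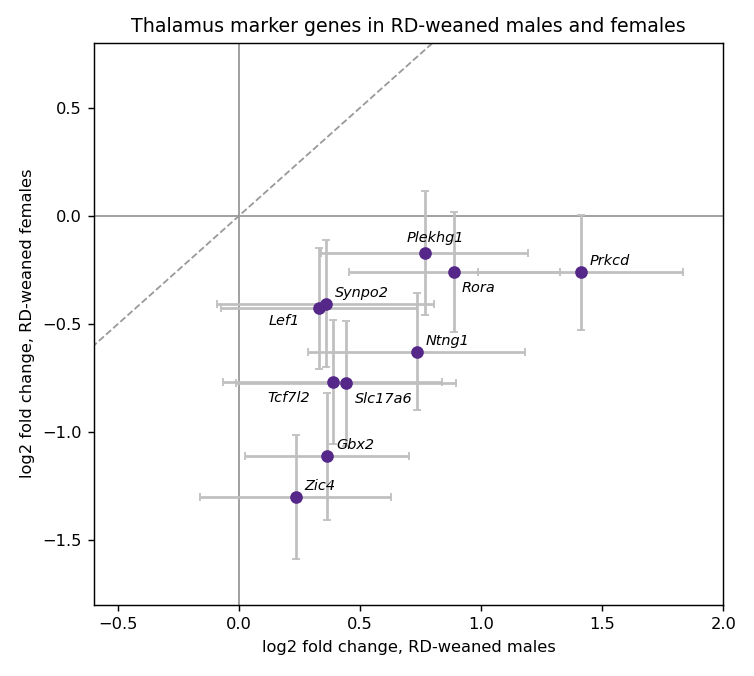
Log2 fold change of each thalamus marker gene in RD-weaned males (x axis) and RD-weaned females (y axis), with bars of 1 deposited standard error and a dashed line of equal values. All 10 points lie right of 0 and below 0, with Prkcd farthest right at 1.41 and Zic4 lowest at -1.30.

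The opposite signs in RD-weaned males and females were tested as a difference of the deposited fold changes, female minus male, over the 12636 genes tested in both. None of the 9 members with a value passed the adjusted threshold, where 0.00791% of genes did. At an unadjusted p under 0.05 the count was 7 of 9, against 3.05% of all genes, which again only describes genes chosen with earlier results known. The median difference of the members was -1.22 and that of all genes 0.01, computed from the authors' deposited tables. Prkcd differed by -1.67 (95% interval -2.65 to -0.69, p = 0.000854, adjusted p = 0.916), from the authors' deposited tables. Gbx2 differed by -1.48 (-2.35 to -0.60, p = 0.000968, adjusted p = 0.916) and Zic4 by -1.54 (-2.49 to -0.58, p = 0.00166, adjusted p = 0.999), from the authors' deposited tables. Most of the difference of Prkcd came from its value in males, and most of that of Gbx2 and Zic4 from theirs in females. Ntng1 differed by -1.36, Slc17a6 by -1.22, Tcf7l2 by -1.15, Rora by -1.15, Plekhg1 by -0.94 and Lef1 by -0.76, with adjusted p = 0.999 for each, from the authors' deposited tables. The intervals of Plekhg1 (-1.95 to 0.08) and Lef1 (-1.72 to 0.21) included 0, from the authors' deposited tables. Members had the same sign in both tables in 0 of 10 cases, against 52.1% of all genes tested in both. Synpo2 is counted in the 10 but had no p-value in RD-weaned females, so it is not among the genes behind the 52.1%. Both tables name their groups in the same order, so the opposite signs would remain if that order were read the other way in both.

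In HCD-weaned males, 6 members were above 0 and 4 below, with a median log2 fold change of 0.10 against -0.01 over all tested genes of the authors' deposited table. None passed the adjusted threshold of the authors' DESeq Wald test, where 0.163% of 15384 tested genes were called. None had an unadjusted p under 0.05 either, against 8.14% of tested genes. Gbx2 was the highest, at 0.51 (standard error 0.31, adjusted p = 0.679), and Tcf7l2 next, at 0.42 (standard error 0.28, adjusted p = 0.716), in the authors' deposited table. Plekhg1 was the lowest, at -0.46 (standard error 0.26, adjusted p = 0.645), in the authors' deposited table. Between these lay Zic4 at 0.26, Slc17a6 at 0.19, Ntng1 at 0.14, Prkcd at 0.06, Lef1 at -0.01, Rora at -0.10 and Synpo2 at -0.16 in the authors' deposited table, with standard errors of 0.25 to 0.31 for the members. The 95% interval of Prkcd ran from -0.43 to 0.56, computed from the authors' deposited table.

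In HCD-weaned females, 4 members were above 0 and 6 below, with a median of -0.18 against 0.04 over all tested genes of the authors' deposited table. None passed the adjusted threshold of the authors' DESeq Wald test, where 1.52% of 15043 tested genes were called, and 1 of 10 had an unadjusted p under 0.05, against 13.3% of tested genes. That gene was Plekhg1, at -0.62 (standard error 0.26, adjusted p = 0.238), per the authors' deposited table. Zic4 was at -0.44 (standard error 0.41), Synpo2 at -0.40 (standard error 0.44), Lef1 at -0.35 (standard error 0.34), Rora at -0.29 (standard error 0.25) and Gbx2 at -0.06 (standard error 0.36) in the authors' deposited table. Ntng1 was highest at 0.35 (standard error 0.30), followed by Tcf7l2 at 0.15 (standard error 0.25), Prkcd at 0.10 (standard error 0.24) and Slc17a6 at 0.06 (standard error 0.19), in the authors' deposited table. Without Slc17a6, Rora, Zic4 and Lef1, the members that other regions also express widely, the median moved from -0.18 to 0.02, computed from the authors' deposited table. The signs of 8 of 10 members were shared between HCD-weaned males and females, against 72.8% of all genes tested in both.

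The HCD-weaned offspring had no called member in either sex, and the sexes were compared there by the same difference test. Over the 14947 genes tested in both tables, 0% were called for the female minus male difference and 0.642% had an unadjusted p under 0.05. None of the 10 members was called or had an unadjusted p under 0.05 for that difference, their median being -0.21, and the widest member value was -0.70 for Zic4 (95% interval -1.69 to 0.29), from the authors' deposited tables.

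**Figure D4:**
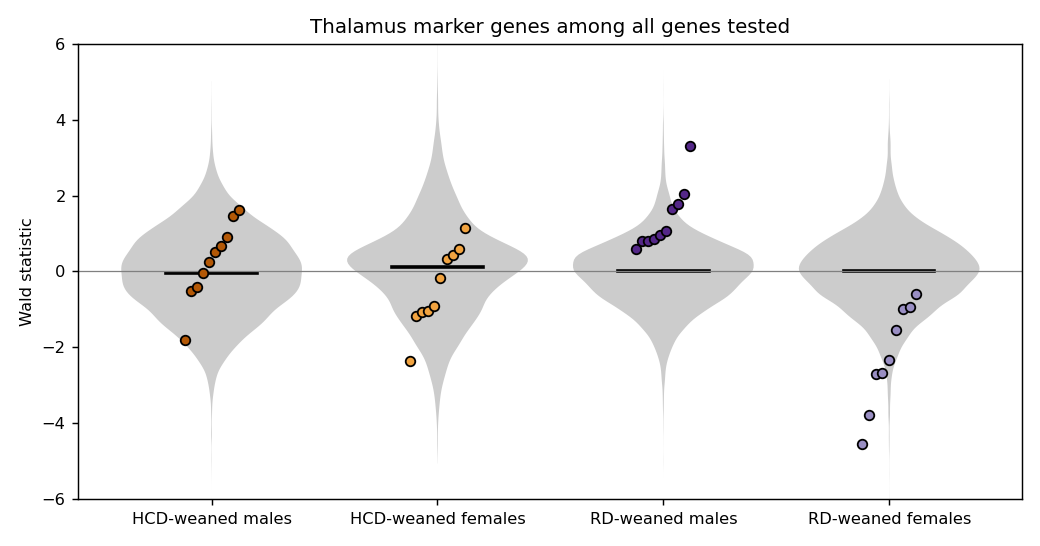
Wald statistic (ratio of fold change to standard error) of the tested thalamus marker genes (coloured points) beside the distribution over all tested genes (grey shape, with a black line at the median) in each comparison, with genes beyond the axis not drawn. The members lie around the middle in HCD-weaned offspring, in the upper part in RD-weaned males, and in the lower part in RD-weaned females, where Zic4 is lowest at -4.55.

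The effect of maternal diet was also compared between weaning diets within a sex. In males, HCD-weaned minus RD-weaned, 0 of 10 members passed, where 0.00775% of 12910 genes did, and 3 of 10 had an unadjusted p under 0.05, against 3.84% of genes. These were Prkcd, at -1.35 (95% interval -2.32 to -0.38), Plekhg1, at -1.23 (-2.21 to -0.25), and Rora, at -0.99 (-1.97 to -0.01), each with adjusted p = 0.978, from the authors' deposited tables. In females, HCD-weaned minus RD-weaned, 0 of 9 passed, where 0.00685% of 14603 genes did, and 4 of 9 had an unadjusted p under 0.05, against 5% of genes. These were Gbx2, at 1.05 (0.15 to 1.95), Ntng1, at 0.98 (0.18 to 1.78), Tcf7l2, at 0.92 (0.17 to 1.67), and Slc17a6, at 0.84 (0.16 to 1.52), with adjusted p-values of 0.875 to 0.916, from the authors' deposited tables. Zic4 differed by 0.86 with an interval that included 0 (-0.12 to 1.85), from the authors' deposited tables. No member differed past the adjusted threshold in any of the 4 difference tests.

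A further 19 genes known from thalamic nuclei, of 20 listed, were in the tables. In RD-weaned females 3 of these were above 0 and 16 below, with a median of -0.40, from the authors' deposited table. Calb2, which encodes the calcium-binding protein calretinin, fell by 1.32 on the log2 scale (standard error 0.28, adjusted p = 0.00473) and Cbln1, a synapse-organising secreted protein, fell by 1.10 (standard error 0.29, adjusted p = 0.0479), per the authors' deposited table. In RD-weaned males 14 of 18 tested were above 0 and none was called, with a median of 0.22 from the authors' deposited table. In HCD-weaned males 11 of 19 were above 0, none called, median 0.09, from the authors' deposited table. In HCD-weaned females 11 of 19 were above 0, median 0.11 in the authors' deposited table, and 2 passed in opposite directions. These were Ramp3, an accessory protein of calcitonin-family receptors, at 0.77 (standard error 0.23, adjusted p = 0.0492), and Necab1, a neuronal calcium-binding protein, at -1.08 (standard error 0.30, adjusted p = 0.0373), in the authors' deposited table. Cacna1g, the T-type calcium channel behind thalamic burst firing, had a log2 fold change of -0.54 (standard error 0.24, adjusted p = 0.677), per the authors' deposited table of RD-weaned females and 0.38 (standard error 0.44, adjusted p = 1.00) in that of RD-weaned males.

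The habenula borders the thalamus dorsally. Of 8 habenula genes, the 6 tested in RD-weaned females were all below 0, with a median of -0.60. Gpr151, a receptor of habenular projection neurons, fell by 1.57 on the log2 scale (standard error 0.29, adjusted p = 0.00035), per the authors' deposited table. In HCD-weaned males all 8 were above 0, with a median of 0.57. Chrnb4, a nicotinic receptor subunit, rose there by 1.32 on the log2 scale (standard error 0.32, adjusted p = 0.0218), per the authors' deposited table. Genes of the reticular thalamus and zona incerta, which are inhibitory, had medians of -0.30 and 0.21 in HCD-weaned males and females and of 0.33 and 0.08 in RD-weaned males and females, none called, from the authors' deposited tables.

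Genes of other regions also had values away from 0 in RD-weaned females. All 9 tested genes of cortex and hippocampus were above 0, with a median of 0.94, and Spink8, a hippocampal pyramidal cell gene, was called above 0 (adjusted p = 0.00113), per the authors' deposited table. All 8 striatal genes were above 0, with a median of 0.40 and none called, in the authors' deposited table. In the choroid plexus list, 6 of 7 were above 0 with a median of 0.68, and Kl (1.01, adjusted p = 0.00867) and Kcnj13 (0.84, adjusted p = 0.0479) were called in the authors' deposited table. All 11 tested hypothalamic genes were below 0, with a median of -0.30 and none called, in the authors' deposited table. The part of these lists in the lower values of Zic4, Gbx2 and the other members was not tested.

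In RD-weaned males the medians were 0.17 for cortex and hippocampus, -0.04 for striatum, 0.06 for choroid plexus, -0.29 for ependyma and tanycytes and -0.14 for hypothalamic neurons, none of whose genes was called, from the authors' deposited table. Genes of neurons in general were above 0 in 7 of 8, with a median of 0.43, and Snap25, a synaptic fusion protein, rose by 0.88 on the log2 scale (standard error 0.14, adjusted p = 2.31e-06), per the authors' deposited table. The thalamus members had a median of 0.41 there, and the part of the general neuron list in their values was not tested. In the other comparisons that list had medians of -0.05 to 0.26, with Tubb3, a neuronal tubulin, called at 0.83 in the authors' deposited table of HCD-weaned females. In HCD-weaned males all 12 tested hypothalamic genes were below 0, with a median of -1.19, and Oxt (-2.27), Pmch (-1.93), the orexin precursor Hcrt (-1.73), Fezf1 (-1.55) and Sim1 (-1.37) were called in the authors' deposited table, while the median of the thalamus members was 0.10, and the part of that list in their values was not tested. All 8 striatal genes were below 0 there, with a median of -0.63 and none called, in the authors' deposited table. In HCD-weaned females 8 of 9 tested hypothalamic genes were below 0 and 8 of 8 striatal genes above 0, none called, with medians of -0.43 and 0.28, from the authors' deposited table. Meninges, oligodendrocyte and ependymal lists had medians between -0.57 and 0.34 over the 4 comparisons, with 1 called gene, Ogn, an extracellular matrix protein, at -1.20 in the authors' deposited table of HCD-weaned males.

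**Figure D5:**
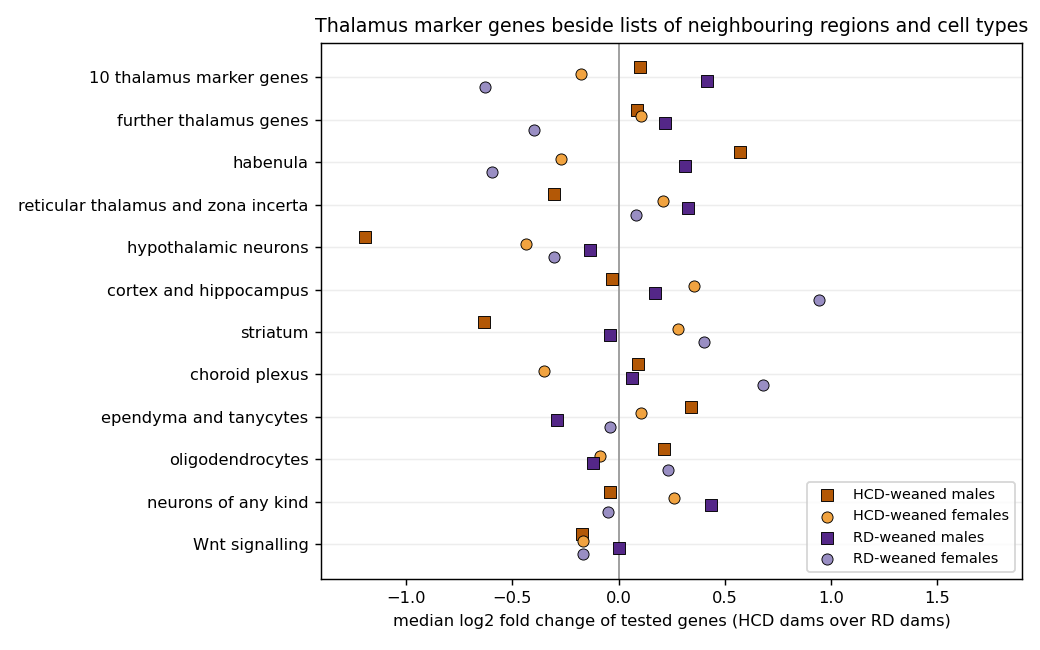
Median log2 fold change of the tested genes of each list (HCD dams over RD dams) in the 4 comparisons, squares for males and circles for females. In RD-weaned females the thalamus markers (-0.63 over the 9 tested members, or -0.53 over all 10), the further thalamus genes (-0.40) and the habenula (-0.60) lie left of 0, and cortex and hippocampus (0.94) and choroid plexus (0.68) lie right of it.

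Because Tcf7l2 and Lef1 are partners of beta-catenin, 20 genes of Wnt signalling were followed as the pathway around them. None was called in any of the 4 comparisons by the authors' DESeq Wald test. In RD-weaned females 4 of 19 tested were above 0 and 15 below, median -0.17, and in RD-weaned males 10 were above and 9 below, median 0.00, from the authors' deposited tables. In HCD-weaned males 9 of 20 were above 0 and in HCD-weaned females 7 of 19, with a median of -0.17 in each, from the authors' deposited tables. Ctnnb1, which encodes beta-catenin, had log2 fold changes of 0.29 and 0.04 in HCD-weaned males and females and of 0.40 and -0.20 in RD-weaned males and females, in the authors' deposited tables. Axin2, a feedback target of the pathway, was at -0.17 and -0.0003 in HCD-weaned males and females. In RD-weaned males it was at 0.13, and in RD-weaned females at -0.35 (standard error 0.21, adjusted p = 0.919), in the authors' deposited tables.

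Genes whose 4 Wald statistics were most like the mean of the members were sought among 10160 other genes with a mean of at least 100 in each table. Over only 4 comparisons, 28 genes had a Pearson correlation above 0.99. The 5 highest were Atxn7l1, Gabarapl2, Fam53c, Chordc1 and Baiap3. Only Baiap3, a protein of dense-core vesicle traffic, was called in any comparison, at -1.36 (adjusted p = 0.00473), per the authors' deposited table of RD-weaned females. In RD-weaned males Baiap3 was at -0.54 and Atxn7l1 at -0.08, without the positive sign of the members, in the authors' deposited table. Gabarapl2, Chordc1 and Fam53c were above 0 there, at 0.40, 0.24 and 0.03. The correlation compares the pattern of the 4 statistics and not their sign or size.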

How the data were processed

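Poly(A) RNA of hypothalamus from 25 mice was sequenced with a stranded kit, per the labels' protocols. Per the submitters' processing notes, the authors used DESeq (no version stated) and the build mm10. Aligner, counting tool and annotation: not given in the sources used here. The 4 tables used, out of 12 files, each hold a mean normalized count (a signal at or above 0), a fold change and standard error on the log2 scale, a Wald statistic (a score) and p-values, all as deposited by the authors, per the file headers. Genes with a mean under 10 have no adjusted p in the authors' tables. The other 8 files hold 48 library columns whose names match no label. They were not used, so the planned library-level tests were not run, and depth, replicate spread and values of single samples are not given here. For RD-weaned males there are 6 such columns for 7 labelled samples.

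Members and lists were chosen with earlier results of these data known. Named genes were all members, list genes with an adjusted p under 0.05, and the 5 genes most like the members' mean Wald statistic. A few further list genes (Cacna1g, Ctnnb1, Axin2) and Xist are given as background. Differences between tables, which share no group, were divided by the root of their summed squared standard errors and given a two-sided normal p, Benjamini-Hochberg adjusted over all genes tested in both. This was tested on simulated data with normal errors of the deposited size. Such data meet the assumptions of the test and do not show how it behaves on the real tables. The deposited fold changes look shrunken, which can make that test conservative. Intervals are 95% normal intervals. Positions and lengths come from GENCODE on GRCm38 and promoter windows of 250 bases from RefSeq (GRCm38.p6). Python 3.11.15, pandas 2.3.3, numpy 2.4.6, scipy 1.17.1 and statsmodels 0.14.6 were used.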

Additional observations from a re-analysis of the deposited data

How the results depend on the processing

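No paired analysis was possible because the library columns carry no replicate number or group that the labels give. For the same reason the count tests with edgeR and DESeq2, leaving out replicates, and the replicate block were not run. The other alternatives changed the call threshold, the filter on low counts, the scale or centre of the statistic, the trend with transcript length, the members included, or the sign of an RD-weaned table. Of the results that answer a comparison, 45 values under an alternative kept their count or moved by less than the spread, and 3 counts moved. Some of the 45 could not move: a limit of members to a mean of at least 10 left every member in. Among the 45, the median of HCD-weaned females changed sign, from -0.18 to 0.02, without Slc17a6, Rora, Zic4 and Lef1. With each Wald statistic divided by its robust spread, 1 of 10 members, Prkcd, was called in RD-weaned males (adjusted p = 0.0224 from the authors' deposited table). On that scale 0.573% of 12920 tested genes were called. With no filter on low counts, 1 of 9 members, Zic4, was called in RD-weaned females, where 0.189% of 18529 genes were called. Gbx2 then had adjusted p = 0.0585, from the authors' deposited table. With the sign of the RD-weaned females turned, 1 of 9 members, Zic4, was called for the difference of HCD-weaned minus RD-weaned females, since the values then add. In that setting 1.27% of 14603 genes were called.

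Wald statistics fell with transcript length in HCD-weaned males (Spearman correlation -0.545 across genes), HCD-weaned females (-0.439) and RD-weaned females (-0.220), with a correlation of 0.0819 in RD-weaned males. Removing that trend reversed the sign of Lef1, Rora and Synpo2 in HCD-weaned males, each with adjusted p = 1.00, and of Synpo2 in HCD-weaned females, with adjusted p = 0.999, from the authors' deposited tables. It changed no count of called members. Over all genes, the robust spread moved the calls from 25 to 3 in HCD-weaned males, from 229 to 56 in females of that diet and from 11 to 74 in males weaned to RD. Removing the length trend left 14 and 61 in HCD-weaned males and females, and a mean of at least 100 left 16 in HCD-weaned males. An adjusted p under 0.10 gave 450 in HCD-weaned females, and 23 and 90 in RD-weaned males and females. With a sign turned, calls over all genes went from 1 to 14 for the difference between RD-weaned sexes, from 1 to 4 between males and from 1 to 186 between females, and 12 were called between females at an adjusted p under 0.10. Centring the fold changes of HCD-weaned females gave 100 calls above and 96 below 0, against 148 and 81. The cause of these shifts was not tested. Depth per library was not analysed here.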
